A study of Mus musculus and Homo sapiens with 7 samples.

Results

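The mitochondrial chromosome was examined from end to end for RNA recovered with EOLA1, a protein with an ASCH domain that the series title places in mitochondria and links to translation there. The data are UV-RIP-seq tables, in which ultraviolet light links RNA to nearby protein and the RNA that comes down with the antibody is sequenced. They cover 332 bins of the human mitochondrial chromosome, all of which were used. The bins are 50 bases wide apart from the last, which has 19, and together span 16569 bases. The experiment holds 2 of the 7 libraries of the series, both from HEK293T, a human embryonic kidney line, and the other libraries belong to a guide screen in mouse cells that was not used here. Both were irradiated at 400 mJ/cm2, lysed in buffers with 10 and then 600 mM NaCl, and precipitated with an EOLA1 antibody. The beads were washed at 150 and 500 mM NaCl and then with LiCl, and the recovered RNA was treated with DNase I. Nothing in the labels says whether the 2 replicates came from separate cultures, so the spread between them may be technical. No input and no control precipitation were analysed here, so a high share cannot be told apart from an abundant RNA, and more RNA bound cannot be told apart from more RNA present. The identity of the cells could not be checked by marker genes, because the tables analysed hold only this chromosome.

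Human mitochondrial DNA is a small circle that is transcribed from both strands into long RNAs that hold many genes. The transcript from the heavy-strand promoters carries both ribosomal RNAs first and then nearly all mRNAs, with tRNAs between most of them. Enzymes cut the tRNAs out, and this frees the rRNAs and mRNAs on either side. The light-strand transcript yields MT-ND6 and a set of tRNAs, and is otherwise antisense to the genes of the heavy-strand transcript. The control region holds the promoters and no annotated gene. Of the 37 genes in the map used here (2 rRNAs, 13 mRNAs and 22 tRNAs), 9 come from the light-strand transcript. Whether the tables keep the strands apart is not stated in what was analysed here, so a count over a gene may come from either transcript.

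The counts summed to 114188 in replicate 1 and 217229 in replicate 2. Each was turned into a share of its replicate's total, in percent. The median bin held 67.0 counts in replicate 1 and 157 in replicate 2, and the highest bins held 12063 and 16605. A bin was given to the gene that covered most of it, which gave 51 rRNA, 228 mRNA and 31 tRNA bins and 22 bins of the control region. Even coverage would put 0.302% of counts in every 50 bases. In replicate 1, 62 bins were above that level, 47 of them in rRNA and 13 in mRNA. In replicate 2 there were 55, with 42 in rRNA and 13 in mRNA. The chromosome thus had a short stretch of high counts over the rRNAs, a long low stretch over the mRNAs with narrow peaks on it, and a gap over the control region.

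**Figure D1:**
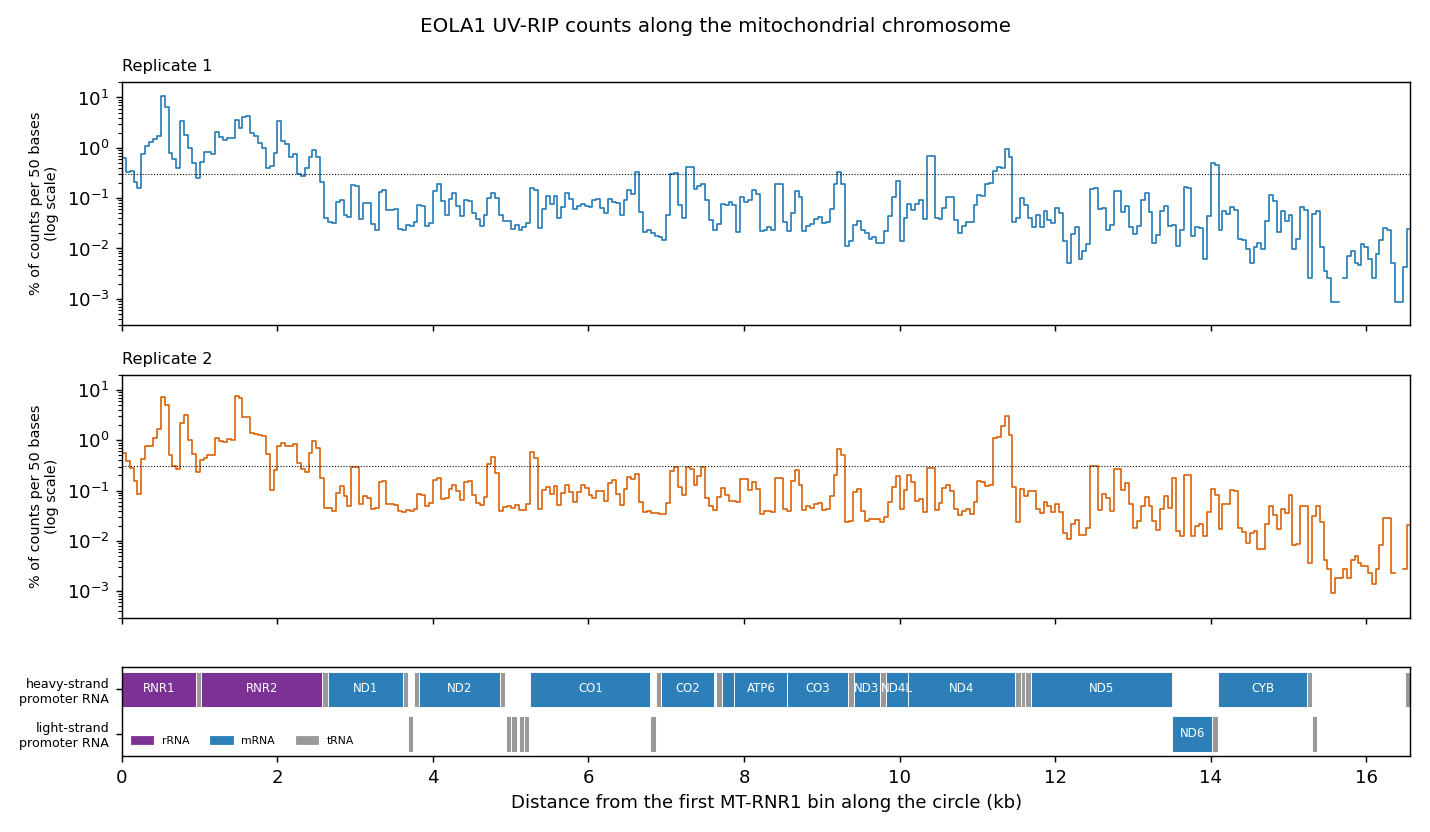
Share of each replicate's counts per 50 bases (percent, log scale) along the circle, starting at the first MT-RNR1 bin, with replicate 1 above replicate 2 and the genes drawn below by the transcript they come from; the dotted line is even coverage, 0.302%, and a break in a line is a bin with no counts. Both replicates stand highest over MT-RNR1 and MT-RNR2 at the left, form a lower band with narrow peaks over the mRNAs, and are lowest in the gene-free control region at the right.

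A small number of bins held most of the signal. In each replicate, 15 of the 332 bins (4.52%) held 50% of the counts. Those bins covered 750 bases in all, in 6 separate runs in replicate 1 and 4 in replicate 2. In replicate 1 all 15 lay in rRNA, while in replicate 2 12 lay in rRNA and 3 in MT-ND4, which encodes a subunit of respiratory complex I. The replicates shared 11 of these bins, or 73.3% of each set. The 4 bins found in the set of replicate 1 alone all lay in MT-RNR2, the large-subunit rRNA. Of the 4 in that of replicate 2 alone, 3 were in MT-ND4 and 1 in MT-RNR2. To reach 80% of the counts took 52 bins in replicate 1 and 63 in replicate 2, and 90% took 100 and 120.

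By the mean of both replicates, 16 bins held 50% of the counts, in 7 runs of 50 to 300 bases. The widest run was chrM:2101-2400 in MT-RNR2, 300 bases with 18.1% of counts in replicate 1 and 23.3% in replicate 2 (20.7% ± 3.67, SD, n = 2). The next was chrM:1101-1250 in MT-RNR1, the small-subunit rRNA, 150 bases with 18.7% and 13.9% (16.3% ± 3.38). The order of these 2 runs therefore differed between the replicates. A 100-base run at chrM:1401-1500 in MT-RNR1 took 5.13% in replicate 1 and 5.34% in replicate 2. Its 2 bins moved in opposite directions, however: chrM:1401-1450 had 3.35% in replicate 1 and 2.22% in replicate 2, and chrM:1451-1500 had 1.78% and 3.13%. Of the smaller runs in MT-RNR2, chrM:1851-1950 took 3.72% and 2.11% in replicates 1 and 2, and chrM:2001-2050 took 1.59% and 1.08%. Both were higher in replicate 1. The single bin chrM:2651-2700 of the same rRNA took 3.39% in replicate 1 but 0.775% in replicate 2, and ranked 6 and 32 among all bins. The only run outside rRNA was the MT-ND4 bin chrM:12001-12050, with 0.935% and 3.04%. The shortest single window with 50% of the counts was chrM:1151-2300 in replicate 1 and chrM:1051-2300 in replicate 2, 1150 and 1250 bases that cross from the middle of MT-RNR1 over MT-TV into MT-RNR2.

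**Figure D2:**
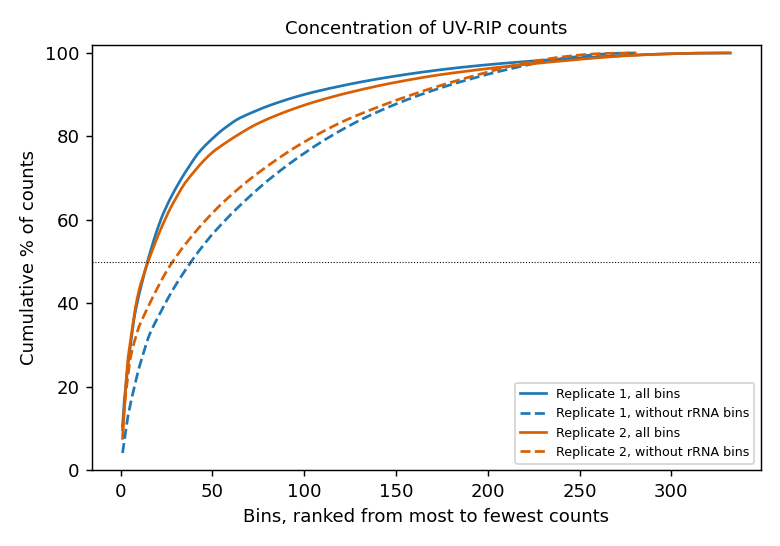
Cumulative percent of counts (vertical axis) against the number of bins ranked from most to fewest counts (horizontal axis), for each replicate over all bins (solid) and without rRNA bins (dashed); the dotted line marks 50%. The solid lines cross it at 15 bins in both replicates, and the dashed ones at 39 bins in replicate 1 and 29 in replicate 2.

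Outside the rRNAs the counts were spread over many short peaks. Without rRNA, 39 of 281 bins held 50% of the remaining counts in replicate 1 and 29 in replicate 2. By the mean of both there were 35 such bins in 19 runs, of which 7 were 1 bin wide, 10 were 2 bins wide, 1 was 3 and 1 was 5. The widest lay near the end of MT-ND4, at chrM:11851-12100, with 3137 counts in replicate 1 and 18568 in replicate 2. That stretch made up 12.1% of all counts outside rRNA in replicate 1 and 26.3% in replicate 2. The run of 3 bins lay near the end of MT-CO3, a subunit of cytochrome c oxidase, at chrM:9801-9950, with 801 and 2988 counts. Runs of 2 bins lay in MT-ND1, at chrM:3601-3700 (412 and 1281 counts in replicates 1 and 2), in MT-ND2 and at the start of MT-CO1, which encodes the catalytic subunit of cytochrome c oxidase. MT-CO2, another subunit of that enzyme, held 3 such runs within 450 bases, of which chrM:7901-8000 had 955 and 1227 counts. MT-ND5 held a pair of them, at chrM:13101-13200 and chrM:13401-13500. MT-ATP8, MT-ND3 and MT-CYB had no bin in this set.

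Many peaks spanned a pair of neighbouring bins with similar counts. A local maximum was taken as a bin above its neighbours for 2 bins on each side. Among maxima with at least 50 counts, the higher neighbour had at least 80% of the maximum in 28 of 50 in replicate 1 and in 31 of 55 in replicate 2. The share of all bins with such a neighbour is not given, so pairing is not shown to be a trait of the peaks. Examples of close pairs in MT-ND4 are chrM:11001-11050 and chrM:11051-11100, with 773 and 798 counts in replicate 1 and 597 and 613 in replicate 2. In MT-ND5, chrM:13401-13450 and chrM:13451-13500 had 156 counts each in replicate 1 and 592 and 579 in replicate 2. Over the mRNA bins of the heavy-strand transcript, the log2 counts of direct neighbours correlated at 0.56 in replicate 1 and 0.66 in replicate 2 (209 pairs), and those 100 bases apart at 0.17 and 0.34 (203 pairs). These are descriptions over bins of the same library, which are not independent. Whether reads that span 2 bins were counted in both is not stated, so counts may exceed the number of reads, and intervals on them cover counting error only.

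The steps of the profile were then set against the gene map, since RNAs freed by the cutting of tRNAs would change in level where a gene begins or ends. At each rRNA and mRNA limit, the mean of the 3 bins inside the gene was divided by that of the 3 bins outside, leaving out the bin with the limit. A step was called where this ratio was at least 2 in both replicates. At 3′ ends a fall was called for 5 of 15 genes, against 19.9% of all 332 positions of the chromosome. At 5′ starts a rise was called for 4 of 15, against 18.7% of all positions. With 15 genes, these counts are within a few genes of the background of the profile itself. Some limits share a bin, however, such as the MT-ATP6 end with the MT-CO3 start and the MT-ND5 end with the MT-ND6 end. A call at one such limit excludes a call at the other. The counts of genes are therefore only roughly comparable with the shares of positions. Of the 66 positions with a fall, 7 held an rRNA or mRNA limit and 46 (69.7%) lay inside such a gene in a bin without a limit. Of the 62 with a rise, 6 held a limit and 48 (77.4%) lay inside a gene. Of all 332 positions, 261 (78.6%) lay inside a gene in this way, so the share of steps inside genes was near that of the positions themselves. Neighbouring positions joined into 22 runs of falls and 18 runs of rises, and 5 of each held a limit of an rRNA or mRNA.

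The largest rise of the chromosome marked the start of the rRNAs. The 3 bins before the MT-RNR1 start averaged 2.33 counts in replicate 1 and 2.00 in replicate 2, and the 3 bins after it 489 and 881. The rise was 8.25 ± 0.76 on the log2 scale (SD, n = 2), or 209-fold in replicate 1 and 440.5-fold in replicate 2. The bin between them, chrM:601-650, which is mostly MT-TF, the first tRNA of the heavy-strand transcript, still had only 28 and 44 counts. By the mean of both replicates, the MT-RNR2 end was the largest fall at any gene limit, 4.24 ± 0.19 on the log2 scale. Its last 3 whole bins averaged 843 and 1623 counts in replicates 1 and 2, against 40.7 and 94.3 in the 3 bins after it (20.7-fold and 17.2-fold lower beyond the end). Between the rRNAs the ratio was 1.49 and 3.49 at the MT-RNR1 end, and 1.40 and 0.809 at the MT-RNR2 start. The flanks there reach past MT-TV, so these ratios mostly compare the rRNAs with each other. They cannot show a break at MT-TV itself. The MT-TV bin between the rRNAs held 284 and 519 counts, well above the other tRNA bins of the heavy-strand transcript. It was below the mean of the 3 bins before it (1239 and 3398) and of the 3 bins after it (831 and 975).

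Of the mRNAs, MT-ND4 had the steepest end. The 3 bins before the bin that holds its end averaged 757 and 4536 counts in replicates 1 and 2. The 3 bins after that bin averaged 81.7 and 153 counts, a fall of 9.27-fold and 29.7-fold. A fall of 9.92-fold and 24.7-fold already lay at chrM:12051-12100, inside the gene. The step therefore cannot be placed at the limit itself. MT-CO3 had 267 and 996 counts inside its end, against 30.3 and 163 outside (8.80-fold and 6.11-fold). MT-ND2, a complex I subunit, had 124 and 748 counts inside its end, against 36.0 and 103 outside (3.44-fold and 7.24-fold). MT-CO1 had 154 and 224 counts inside its end and 20.7 and 76.7 outside it. That inside mean rests largely on the bin chrM:7251-7300, with 376 and 464 counts. Inside MT-CO1, the fall at chrM:7301-7350 was larger than at its end (9.26-fold and 5.00-fold). The same held inside MT-CO3 at chrM:9901-9950 (10.4-fold and 6.67-fold). For these 2 genes, too, the fall cannot be placed at the limit itself. All 4 ends fell in both replicates, by more in replicate 2 for MT-ND4 and MT-ND2 and by more in replicate 1 for MT-CO3 and MT-CO1. At starts, rises were called at MT-CO1 (2.84-fold in replicate 1 and 4.21-fold in replicate 2), at MT-CO2 (5.96-fold and 3.05-fold) and at MT-ND4L, a small complex I subunit read from the same mRNA as MT-ND4 (8.69-fold and 4.85-fold). Between MT-ND4L and MT-ND4 there was no step past 2-fold: the ratio was 1.23 in both replicates. In the other pair of genes that share an mRNA, MT-ATP8 and MT-ATP6, the ratio of MT-ATP6 to the bins before it was 0.881 and 1.54 at the MT-ATP6 start.

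Some limits ran the other way. At MT-ND1 the counts inside the start were lower than those before it in both replicates (ratios 0.224 and 0.271), and the bins before it include the end of MT-RNR2. At the MT-ND6 start, where MT-TE lies next to it, the ratios were 0.140 and 0.455. MT-ND3 was lower than its surroundings at its start (0.374 and 0.311) and at its end (0.265 and 0.388), the only gene with a reversed step on both sides. Both replicates had the same sign at 12 of 15 ends and at 12 of 15 starts. Over all positions the sign was the same in 262 of 332 (78.9%). The end of MT-CYB, the complex III subunit at the far end of the heavy-strand transcript, showed no step past 2-fold (0.853 and 0.789). The bins outside this end were uneven, however. The MT-TT bin next to it, chrM:15901-15950, had only 3 counts in replicate 1 and 8 in replicate 2. The MT-TP bins that follow had 56 and 64 counts in replicate 1 and 68 and 109 in replicate 2. The mean outside the end, 41.0 and 61.7 counts in replicates 1 and 2, thus rests on MT-TP. Coverage fell away past MT-TP, the last tRNA before the control region. By the mean of both replicates, the largest fall of all positions was there, at chrM:16151-16200, where the 3 bins before it averaged 26.7 and 56.7 counts and the 3 after it 0.667 and 3.33. It was the largest in replicate 1 (40-fold), whereas in replicate 2 (17-fold) others were larger, with the end of MT-ND4 first. That fall rests on 2 and 10 counts beyond it. A large rise inside a gene lay at chrM:13051-13100 in MT-ND5, where the 3 bins after it averaged 141 and 479 counts and the 3 before it 16 and 37.7 (8.83-fold and 12.7-fold). In replicate 1 the rise at chrM:14601-14650 in MT-ND6 was larger (16.8-fold, against 3.84-fold in replicate 2). In replicate 2 that at chrM:11851-11900 in MT-ND4 was larger (15.4-fold, against 3.44-fold in replicate 1).

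**Figure D3:**
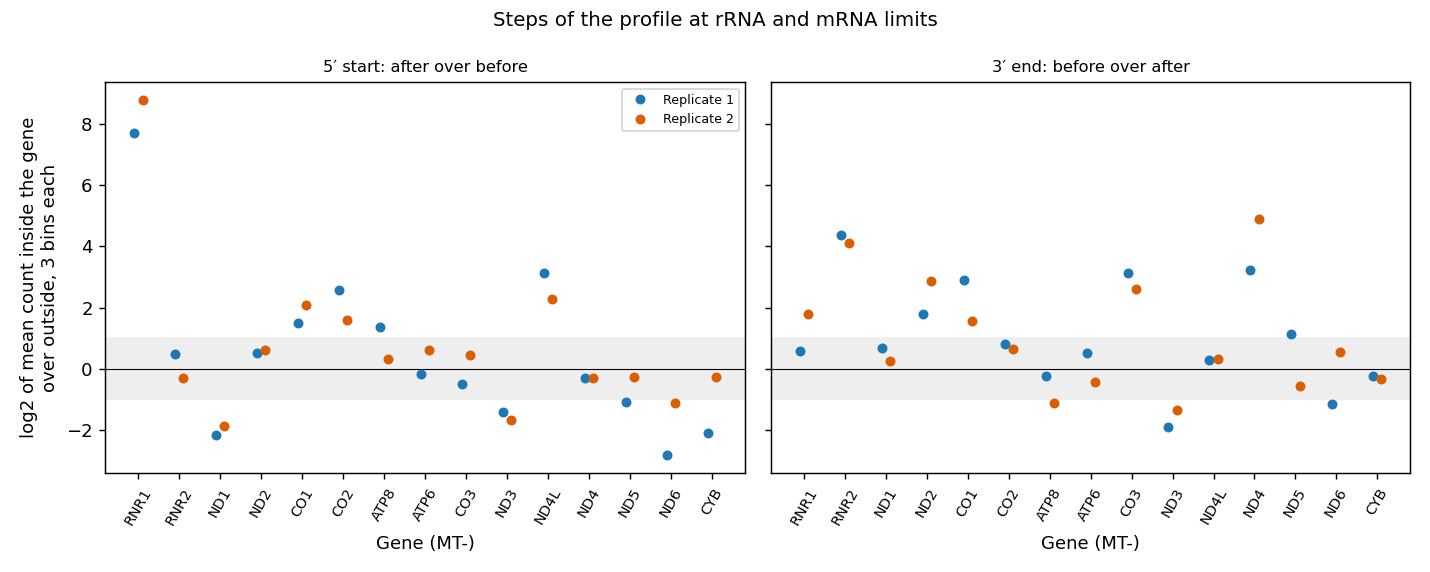
Log2 ratio of the mean of the 3 bins inside a gene to that of the 3 bins outside it, at the 5′ start (left panel) and the 3′ end (right panel) of each rRNA and mRNA, 1 point for each replicate; the grey band holds ratios under 2-fold. Above the band in both replicates stand 4 starts (MT-RNR1, MT-CO1, MT-CO2 and MT-ND4L) and 5 ends (MT-RNR2, MT-ND2, MT-CO1, MT-CO3 and MT-ND4).

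A slope along the heavy-strand transcript was sought next, as genes far from the promoter are transcribed last. Over the 218 bins of its 12 mRNAs, the log2 share fell by 0.10 per kb in replicate 1 and by 0.12 in replicate 2. The mean slope was −0.11 ± 0.019 (SD, n = 2), or −7.28% per kb. No p-value is given, because neighbouring bins of a library are not independent. The slope was not spread evenly over the transcript. From MT-ND1 to MT-CO3, over 6.70 kb and 118 bins, it was −0.0062 per kb in replicate 1 and 0.0068 in replicate 2, so the profile was level there. From MT-ND3 to MT-ND4 the counts climbed towards the end of MT-ND4, at 1.59 and 1.63 per kb over 41 bins. The level was lower in MT-ND5 and MT-CYB, where the median of 59 bins was 40.0 counts in replicate 1 and 89.0 in replicate 2, against 84.0 and 184 counts from MT-ND1 to MT-CO3. As shares, the earlier mRNAs stood 2.10 and 2.07 times above MT-ND5 and MT-CYB. When MT-ND5 and MT-CYB were left out, an alternative chosen after the data were seen, the slope was 0.036 per kb. Without MT-ND4 as well it was −0.065 per kb, so its sign varied with which of these 3 genes entered.

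The low bins between the peaks were lower in MT-ND5 and MT-CYB too. The 10th percentile of bins from MT-ND1 to MT-CO3 was 27.7 counts (0.0243%) in replicate 1 and 89.7 (0.0413%) in replicate 2. In MT-ND5 and MT-CYB it was 11 counts (0.00963%) and 27.2 (0.0125%). These low levels differed 2.52-fold in replicate 1 and 3.30-fold in replicate 2. By gene, the low level in replicate 2 was 0.0429% in MT-ND1, 0.0566% in MT-ND2, 0.0520% in MT-CO1, 0.0442% in MT-CO2, 0.0618% in MT-ATP8, 0.0379% in MT-ATP6 and 0.0405% in MT-CO3. It was 0.0260% in MT-ND3, back at 0.0364% in MT-ND4L and 0.0381% in MT-ND4, and then 0.0152% in MT-ND5 and 0.00838% in MT-CYB. In replicate 1 it ranged from 0.0219% in MT-CO3 to 0.0744% in MT-ATP8 over the genes from MT-ND1 to MT-CO3. There it was 0.0147% in MT-ND3, 0.0180% in MT-ND4L and 0.0339% in MT-ND4, which was above MT-ND1 (0.0294%), and then 0.0127% in MT-ND5 and 0.00963% in MT-CYB. The low level therefore dipped at MT-ND3, returned by MT-ND4 and was lowest past it. MT-ATP8, MT-ND4L and MT-ND3 cover only 4, 6 and 7 bins, so their 10th percentile lies near their lowest bin. It is thus not fully comparable with that of longer genes. MT-ND3 had the lowest median bin of the heavy-strand mRNAs in replicate 1 (23.0 counts). In replicate 2 MT-CYB was lowest, with 47.0, and MT-ND3 was next with 59.0. MT-ND3 was placed between MT-CO3 (46.0 and 119.5 counts) and MT-ND4L (48.5 and 174.5 counts), so the profile dipped there and rose again. The median bin of MT-ND4 was 98.0 and 260.5 counts, in the range of the genes nearer the promoter: MT-CO2 had 139.5 and 271.5 and MT-ND1 67.0 and 117. MT-ND6, the mRNA of the light-strand transcript, had 29.5 and 45.0 counts.

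**Figure D4:**
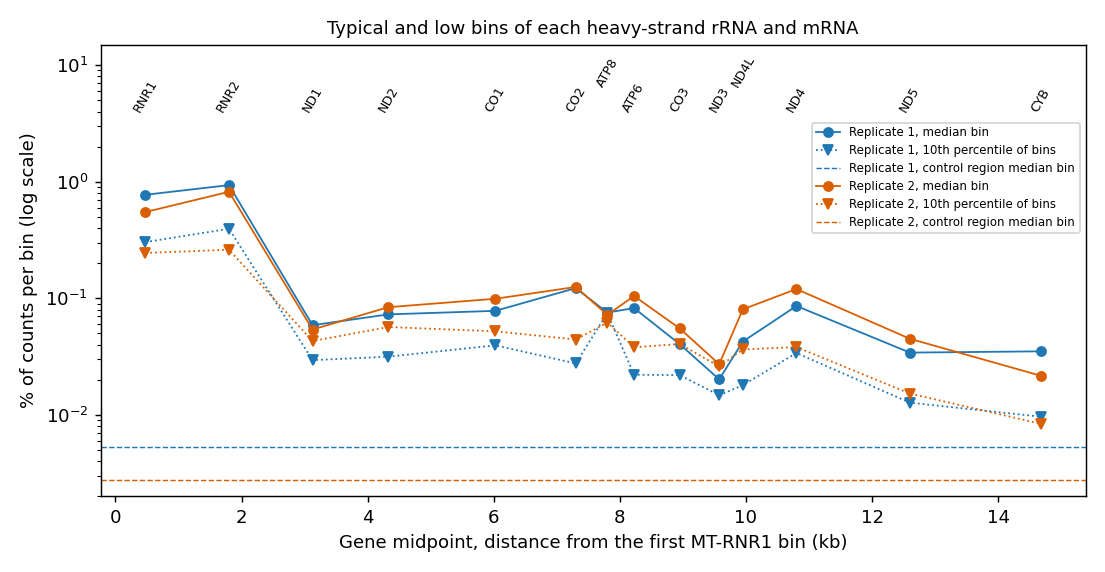
Median bin (circles) and 10th percentile of bins (triangles) of each rRNA and mRNA of the heavy-strand transcript, as percent of each replicate's counts per bin (log scale), against the distance of the gene's midpoint from the first MT-RNR1 bin (kb); dashed lines mark the median bin of the control region. Past the rRNAs the low bins of replicate 2 lie between 0.0379% and 0.0618% up to MT-CO3, and in both replicates they dip at MT-ND3, are higher again in MT-ND4 and are lowest in MT-ND5 and MT-CYB, still above the control region.

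Where inside a gene the counts peaked did not follow a single rule. The highest bin lay near the 3′ end of the gene in both replicates for MT-ATP6, MT-CO3 and MT-ND4. It was the 2nd of 7 bins in MT-ND3 and the 17th of 36 in MT-ND5, in both replicates. In MT-CO1 it was the 28th of 31 bins in replicate 1, with 376 counts, but the 1st in replicate 2, with 1257 counts. In MT-ND2 it was the 6th of 21 in replicate 1 and the 20th in replicate 2. In all, 7 of the 15 rRNA and mRNA genes had their highest bin at the same place in both replicates, and 9 within 1 bin. The peaks stood furthest above the rest of the gene in MT-RNR1 and MT-ND4. The highest bin of MT-RNR1 was 13.7 times its median bin in replicate 1 and 13.05 times in replicate 2, and that of MT-ND4 10.9 and 25.3 times. In MT-ATP8, which covers only 4 bins, it was 1.13 and 1.58 times.

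The tRNA genes from MT-ND1 to MT-ND4 were low stretches of the profile, and those outside that span were not uniformly so. Of the 18 bins assigned to tRNAs between MT-ND1 and MT-ND4, 17 (94.4%) were below the median mRNA bin in both replicates, against 43.4% of the mRNA bins themselves. This span was chosen after the values were seen. Of all 31 tRNA bins 23 (74.2%) were below the median mRNA bin in both, and of the 13 outside the span 6 (46.2%). Those inside it had 15 to 54 counts in replicate 1, with a median of 31.5, and 52 to 163 in replicate 2, with a median of 89.5. The exception was the bin of MT-TK, chrM:8301-8350, with 35 and 163 counts. The longest stretch without an mRNA in this span lies between MT-ND2 and MT-CO1. It holds MT-TW and then tRNAs of the light-strand transcript from MT-TA to MT-TY, with the light-strand origin of replication among them. The 6 bins from MT-TA to MT-TY had 26 to 40 counts in replicate 1 and 90 to 120 in replicate 2. They were therefore flat, at 0.392 and 0.566 times the median bin of MT-ND2, and at about the low level of the neighbouring mRNAs. Library preparation often loses RNAs as short as a tRNA, and its size limits are not stated, so a low count over a tRNA gene cannot be told apart from a loss of short RNA. Between MT-ND4 and MT-ND5, the bin of MT-TS2 at chrM:12201-12250 had 116 and 234 counts and that of MT-TL2 next to it 83 and 173, above the median mRNA bin of 64.0 and 145 counts. On the light-strand side, MT-TE differed most: its bins chrM:14651-14700 and chrM:14701-14750 had 558 and 524 counts in replicate 1, against 231 and 180 in replicate 2.

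The gene-free control region was the emptiest stretch of the chromosome. Its 22 bins held 176 counts in replicate 1, or 0.154% of the total (95% Wilson interval 0.133 to 0.179), and 283 in replicate 2, or 0.130% (0.116 to 0.146). Per 50 bases this was 0.129 and 0.0913 times the median mRNA bin, so that bin stood 7.77 and 10.95 times above the control region. The median bin of the region had 6 counts in both replicates, although replicate 2 was counted 1.90 times as deeply. The bins chrM:451-500 and chrM:501-550 had 1 count each in replicate 1 and 0 in replicate 2. The bins chrM:16201-16250 and chrM:16251-16300 had 1 count each in replicate 1, and 2 and 4 in replicate 2. The only other empty bin was chrM:16301-16350, with 0 counts in replicate 1 and 4 in replicate 2. A count of 0 allows a share of up to 0.00263% in replicate 1 and 0.00138% in replicate 2.

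The region was not uniformly empty. A bump at chrM:251-400 held 73 of its 176 counts in replicate 1 (41.5%) and 140 of its 283 in replicate 2 (49.5%), in 3 of its 22 bins. Its bins chrM:301-350 and chrM:351-400 had 29 and 27 counts in replicate 1 and 61 in each in replicate 2. The next bin, chrM:401-450, had 6 and 5 counts. The control region is known to give rise to short RNAs from the light-strand promoter. Without strand it cannot be said which transcript these counts belong to. The other 19 bins had 0 to 14 counts in replicate 1 and 0 to 52 in replicate 2, the highest in replicate 2 being the bin next to MT-TP. The level of the control region was also set against the whole chromosome. It would bound an evenly spread signal only if this region is recovered and mapped like the rest, which was not tested. The median bin of the region, repeated over all bins, would make up 1.74% of the counts in replicate 1 and 0.917% in replicate 2. With that level taken off every bin, the rRNA share was 78.4% in replicate 1 and 68.0% in replicate 2, against 77.4% and 67.5% before.

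Both replicates placed most peaks at the same sites but weighed them differently. Replicate 1 had 56 local maxima and replicate 2 had 57, of which 39 were in the same bin. Within 1 bin of a maximum of the other replicate lay 83.9% and 82.5% of them, where 51.5% and 50.6% of all bins lie that close to one. The shares of the replicates overlapped by 76.3%, taking the smaller share of each bin, so 23.7% of the counts would have to move to make the profiles equal. The counts differed by far more than counting noise, with a chi-square of 24096 on 331 degrees of freedom, so these are not 1 library deposited in duplicate. In 130 of 332 bins the 95% Wilson intervals of the share did not overlap, with 82 bins higher in replicate 2 and 48 in replicate 1.

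The differences went in part by class of bin. In replicate 2 the share was lower in 37 of the 51 rRNA bins, with a median ratio to replicate 1 of 0.717, and higher in 166 of the 228 mRNA bins, with a median ratio of 1.31. From MT-ND1 to MT-CO3 it was higher in 97 of 118 bins (median ratio 1.34), and in MT-ND5 and MT-CYB in 34 of 59 (1.09). It was also higher in 22 of 31 tRNA bins (1.41). Shares are parts of a fixed total, so the lower rRNA total in replicate 2 (67.5%, against 77.4%) raises the other bins together. The number over all bins is not given. Within MT-RNR2, 10 of 32 bins were higher in replicate 2, with ratios from 0.228 to 2.83. Among the 195 bins with at least 50 counts in both, 9.23% had a share in replicate 2 at least 2 times that in replicate 1, and 4.62% the reverse. The 5 highest ratios lay at the end of MT-ND4, the end of MT-ND2 and the start of MT-CO1. The MT-ND4 bin chrM:11951-12000 had 445 counts in replicate 1 and 4238 in replicate 2, a ratio of 5.01. The MT-ND2 bin chrM:5401-5450 had 144 and 1027 counts (3.75), and the first MT-CO1 bin, chrM:5901-5950, had 182 and 1257 (3.63). At the other end, MT-TE at chrM:14701-14750 had a share 5.54 times higher in replicate 1. The MT-RNR2 bins from chrM:2551 to 2700 were 3.07 to 4.38 times higher in replicate 1.

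In percentage points, large differences lay in both rRNAs and in MT-ND4. The MT-RNR2 stretch chrM:2101-2200 had 6.12% of counts in replicate 1 and 14.7% in replicate 2, a difference of 8.59 percentage points. The stretch near the end of MT-ND4 at chrM:11851-12100 had 2.75% and 8.55%, a difference of 5.80 points. Against these, the MT-RNR1 peak at chrM:1151-1250 had 17.0% in replicate 1 and 12.3% in replicate 2. That peak was among the 4 highest bins in both replicates. With 2 replicates of 1 group, these differences measure the spread and no stretch was tested.

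**Figure D5:**
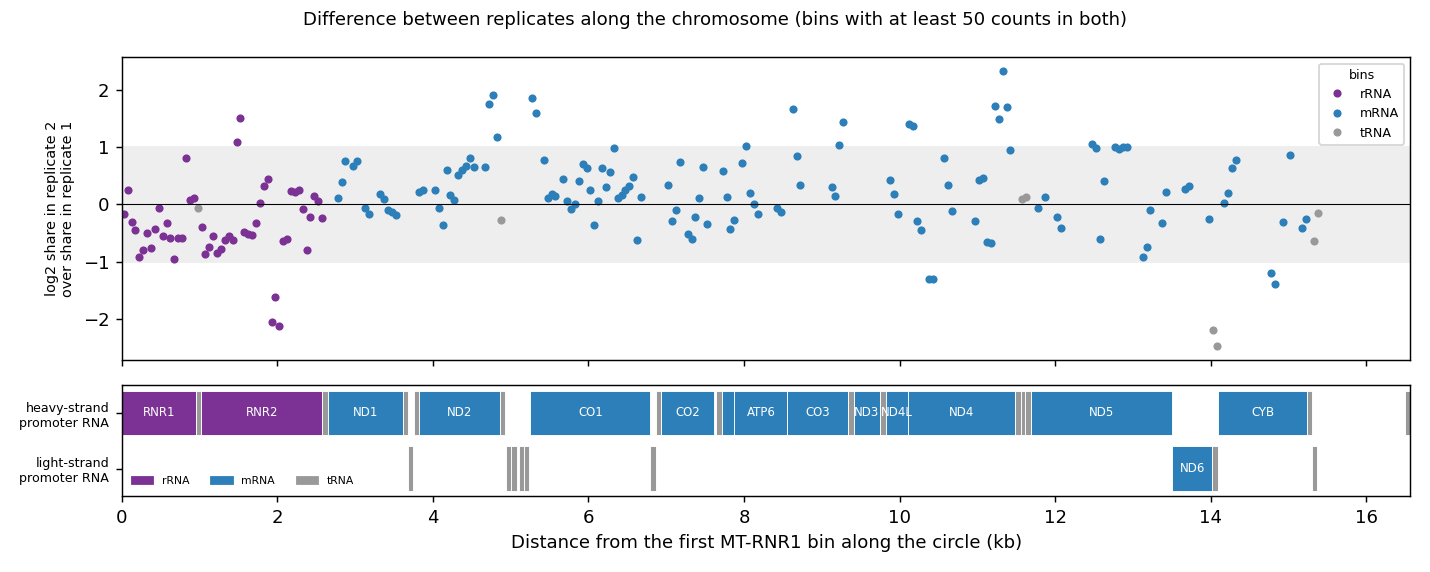
Log2 ratio of the share in replicate 2 to that in replicate 1 for the 195 bins with at least 50 counts in both (points, by class of bin), along the circle from the first MT-RNR1 bin, with the gene map below; the grey band holds ratios under 2-fold. Most rRNA points lie under 0 and most mRNA points over it, the end of MT-ND4 stands highest, and the MT-TE bins stand lowest.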

How the data were processed

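UV-RIP-seq of EOLA1 was analysed in 2 HEK293T libraries. The authors' deposited tables give raw, whole-number counts by bin along the mitochondrial chromosome, 1 table for each replicate. Per the submitters' processing notes, the tools named were Trim Galore, STAR and Picard, and the human build GRCh38.p14. Their settings, the handling of duplicates, strands and nuclear copies of mitochondrial DNA, and what was counted are not given in the sources at hand. Counts were divided by each replicate's total with no filter. Coordinates are those of the deposited tables, turned to count from 1. No human annotation was given, so gene limits were entered by hand from the standard map of the human mitochondrial chromosome. All 37 genes stood in the same order as in the mouse table of RefSeq, with lengths within 7.69%. Limits are therefore given by bin.

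No comparison between groups exists, so values are given for each replicate with no test. A pseudocount of 0.5 counts was used for the slope. The rule for what is named took all rRNAs and mRNAs, the gene-free region, the bins and runs with most counts, the largest steps and the largest differences between replicates. Neighbouring positions with the same step were given once. The genes, lists and rules were chosen with earlier results of these data known. The statistics were tested on simulated data. Python 3.11.15, numpy 2.4.6, pandas 2.3.3, scipy 1.17.1 and matplotlib 3.10.9 were used. Base composition was planned but not run, for want of a human sequence.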

Additional observations from a re-analysis of the deposited data

How the results depend on the processing

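Of 38 alternatives, 25 left their result within the spread between replicates or, for counts of bins and genes, within 1.5 times. This tally is partly fixed by its rule. For the slope and the control region, a single replicate always lies within the SD of the pair. The overlap of the replicates has no such spread, so all its alternatives fell outside the 25. Bins with 50% of the counts numbered 16 by the mean, 15 with either replicate left out, 35 without rRNA bins and 9 with 100-base bins. Their runs numbered 7, with 4 to 6 when a replicate was left out (4 without replicate 1) and 19 without rRNA bins. Gene ends with a fall ranged from 4 to 6 and starts with a rise from 3 to 5 over other flanks, folds and single replicates. The share of all positions with such a step changed with the fold too. At 1.5-fold, 6 of 15 ends stood against 26.8% of positions, and 4 of 15 starts against 28.6%. At 3-fold, 4 of 15 ends stood against 12% of positions, and 3 of 15 starts against 10.8%. Similar counts of genes therefore do not mean a similar distance from the background. The slope of −0.11 per kb was −0.14 without MT-ND4, −0.082 with 1 value per gene and −0.28 with rRNA bins included. It turned to 0.036 without MT-ND5 and MT-CYB and was −0.065 without MT-ND4, MT-ND5 and MT-CYB, both chosen after seeing the data. The control region, at 0.110 times the median mRNA bin, was at 0.0676 times by its median bin. The overlap of 76.3% was 74.8% without rRNA bins, 79.1% without the 10 highest bins and 78.0% with 100-base bins. The cause was not tested. No paired analysis was possible because the profile comes from 1 group. Base composition and its alternatives were not run. Depth limits the control region most, where bins hold few counts, and 2 replicates give no reliable spread.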
